A study of Mus musculus with 8 samples.

Results

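The miR-200 family of microRNAs was followed in mouse kidney after lipopolysaccharide (LPS), through 8 mature miRNAs taken by name from the 1881 mouse miRNAs on the array. The 8 are the 3p arms mmu-miR-200b-3p, mmu-miR-200a-3p, mmu-miR-429-3p, mmu-miR-200c-3p and mmu-miR-141-3p and the 5p arms mmu-miR-200b-5p, mmu-miR-200a-5p and mmu-miR-141-5p. Of these, 5 come from a cluster of miR-200b, miR-200a and miR-429 and 3 from a cluster of miR-200c and miR-141. The groups were 4 arrays of kidneys from mice that received LPS, a component of the outer membrane of Gram-negative bacteria, at 10 µg per g of body weight by the intraperitoneal route, and 4 arrays of kidneys from sham mice that received saline. Kidneys were removed 24 h later, and 100 ng of total RNA from 30 mg of tissue was labelled with Cy3. The labels used here give no strain, age or genotype, and leave unsaid whether the samples are from separate animals. The p-values therefore cover only the spread between these samples, which may be technical. The labels number the arrays sham 5 to 8 and LPS 6, 10, 11 and 12.

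MiRNAs of this family are made in epithelial cells, in the kidney mainly along the tubules and collecting ducts. Their 3p arms are the guide strands, which pair through the seed with messenger RNAs, the best known being those of Zeb1 and Zeb2, transcription factors that repress E-cadherin and, in turn, the miR-200 genes themselves. The family is known for holding cells in the epithelial state, and its loss accompanies epithelial-mesenchymal transition. In whole-kidney RNA, fewer cells of a type and less RNA per cell cannot be told apart.

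The 5 guide strands are shown because the comparison turns on whether members that share a seed, or members that share a cluster, moved together. The mature sequences are those of RefSeq on GRCm38.p6, written 5′ to 3′ with the seed, bases 2 to 8, in capitals. All 8 members had an entry there.
miR-200b-3p: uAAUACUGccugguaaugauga
miR-429-3p: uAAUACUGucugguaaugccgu
miR-200c-3p: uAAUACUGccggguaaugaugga
miR-200a-3p: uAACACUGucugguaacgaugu
miR-141-3p: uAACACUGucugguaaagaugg
The first 3 share the seed AAUACUG, held by 3 of 1679 mature mouse miRNAs in the table (0.179%), and the last 2 share AACACUG, held by no other of them (0.119%). Each seed group therefore contains members of both clusters. Over their first 22 bases, counted from 1 at the 5′ end, miR-200b-3p and miR-200c-3p differ at 2 positions (U11G and A22G, miR-200b-3p first). MiR-200a-3p and miR-141-3p also differ at 2 positions (C17A and U22G, miR-200a-3p first). By contrast miR-200b-3p and its cluster neighbour miR-200a-3p differ at 4, of which U4C lies in the seed.

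The passenger strands, the arms usually discarded when the guide is loaded, are shown for the comparison of arms further on, again with the seed in capitals.
miR-200b-5p: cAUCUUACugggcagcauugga
miR-200a-5p: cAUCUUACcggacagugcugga
miR-141-5p: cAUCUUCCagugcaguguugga
MiR-200b-5p and miR-200a-5p share the seed AUCUUAC, and miR-141-5p has a seed of its own among the 1679.

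Both clusters lie on the minus strand of GRCm38.p6. The hairpins Mir200b, Mir200a and Mir429 span 1846 bases of chromosome 4 inside the long non-coding RNA gene Gm13648, with 695 bases between Mir200b and Mir200a and 908 between Mir200a and Mir429. Their guide strands are at chr4:156055685-156055706 (miR-200b-3p), chr4:156054911-156054932 (miR-200a-3p) and chr4:156053916-156053937 (miR-429-3p). The nearest protein-coding gene on that side, Ttll10, is 3087 bases from Mir429. Mir200c and Mir141 span 477 bases of chromosome 6, 336 bases apart, overlapping no annotated gene. They lie between Phb2, 968 bases from Mir141, and Ptpn6, 2316 bases from Mir200c. Their guide strands are at chr6:124718324-124718346 (miR-200c-3p) and chr6:124717917-124717938 (miR-141-3p).

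Because paralogs across the clusters are nearly alike, the part of each array probe that distinguishes them matters for the results. The longest probe of each such member is given, with capitals for the bases whose pairing would be lost on the paralog of the same seed.
miR-200b-3p probe: TcatcattaccAggcag
miR-200c-3p probe: TCcatcattaccCggc
miR-200a-3p probe: AcatcGttaccagacagt
miR-141-3p probe: CcatcTttaccagacag
Against its paralog, the miR-200b-3p probe has 2 mismatches and the miR-200c-3p probe 3. The miR-200a-3p and miR-141-3p probes have 2 each. Every probe of the 8 members matched its own mature sequence exactly, and cross-hybridisation was not tested. A level on this array depends on the probe, so levels of different members are not ranked against each other. All levels are log2 signals relative to the array's 75th percentile, and differences are LPS minus sham on that scale.

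All arrays lay on 1 slide, with sham arrays in row 1 and LPS arrays in row 2, and the effects of row and of LPS cannot be told apart. A slide column held 1 sham and 1 LPS array, in 4 columns. Between 15.8% and 17.5% of non-control spots were well above background and 336 to 375 miRNAs were detected per array. MiR-21a-5p, known to rise in injured tissue, was at 4.37 to 4.61 on sham and 6.63 to 6.88 on LPS arrays. Among 338 miRNAs tested with limma, 40.2% passed an adjusted p of 0.05 (Benjamini-Hochberg), 14.8% higher and 25.4% lower in LPS kidneys, and the groups did not overlap for 37.0%. Those shares are the background for the counts of members. Of the 8 members, 7 were detected on all 8 arrays and tested.

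Differences between LPS and sham kidneys in the family's guide strands were small, from -0.16 to 0.30 log2 units. Of the 7 tested members, miR-429-3p fell, by 0.16 log2 units, and the other 6 did not pass the test. That is 1 lower and 0 higher, against the shares of 25.4% and 14.8% over all tested miRNAs. The median difference of the 7 was -0.04, beside -0.08 for all 338. The differences of the 3 guides of the chromosome 4 cluster were all below 0, while miR-200c-3p and miR-141-3p were above their sham means on LPS 10, 11 and 12.

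MiR-200b-3p, a guide strand of the AAUACUG seed, was at 3.66, 3.78, 3.69 and 3.65 on sham 5, 6, 7 and 8 and at 3.50, 3.70, 3.63 and 3.65 on LPS 6, 10, 11 and 12. LPS 10 lay inside the sham range, LPS 11 and 12 just under the lowest sham value and LPS 6 farther below it, and the groups overlapped. Means were 3.69 ± 0.06 in sham and 3.62 ± 0.09 in LPS kidneys (SD, n = 4 each), a difference of -0.08 ± 0.06 (SE, limma adjusted p = 0.350, 95% interval -0.22 to 0.07).

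MiR-200a-3p, the neighbour with the AACACUG seed, was at 3.41, 3.48, 3.40 and 3.37 on the sham arrays and at 3.24, 3.49, 3.30 and 3.39 on the LPS arrays in the same order. LPS 6 was the lowest and LPS 10 the highest of all 8 arrays, so the LPS group spanned the sham group. The means of 3.42 ± 0.05 and 3.36 ± 0.11 (SD, n = 4 each) differed by -0.06 ± 0.07 (SE, limma adjusted p = 0.501, 95% interval -0.21 to 0.09).

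MiR-429-3p, the last hairpin of the chromosome 4 cluster, was at 2.77, 2.83, 2.82 and 2.75 on the sham arrays and at 2.58, 2.73, 2.60 and 2.61 on the LPS arrays. All 4 LPS values were below all 4 sham values, and LPS 10 came within a few hundredths of the lowest of them. The means were 2.79 ± 0.04 and 2.63 ± 0.07 (SD, n = 4 each). MiR-429-3p fell by 0.16 ± 0.05 log2 units, to 0.894 of the sham level (SE, limma adjusted p = 0.0421, 95% interval -0.29 to -0.04). Both of its probes gave -0.16, and it was lower in each of the 4 slide columns. A block for slide column ended the call (adjusted p = 0.0631), as did leaving arrays unscaled, at -0.09 (adjusted p = 0.417). The call was also lost on leaving out sham 5, 6, 7 or 8 (adjusted p = 0.0784, 0.0999, 0.136 and 0.0774) or LPS 6, 11 or 12 (0.119, 0.110 and 0.0956), and held without LPS 10 (0.0129).

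**Figure D1:**
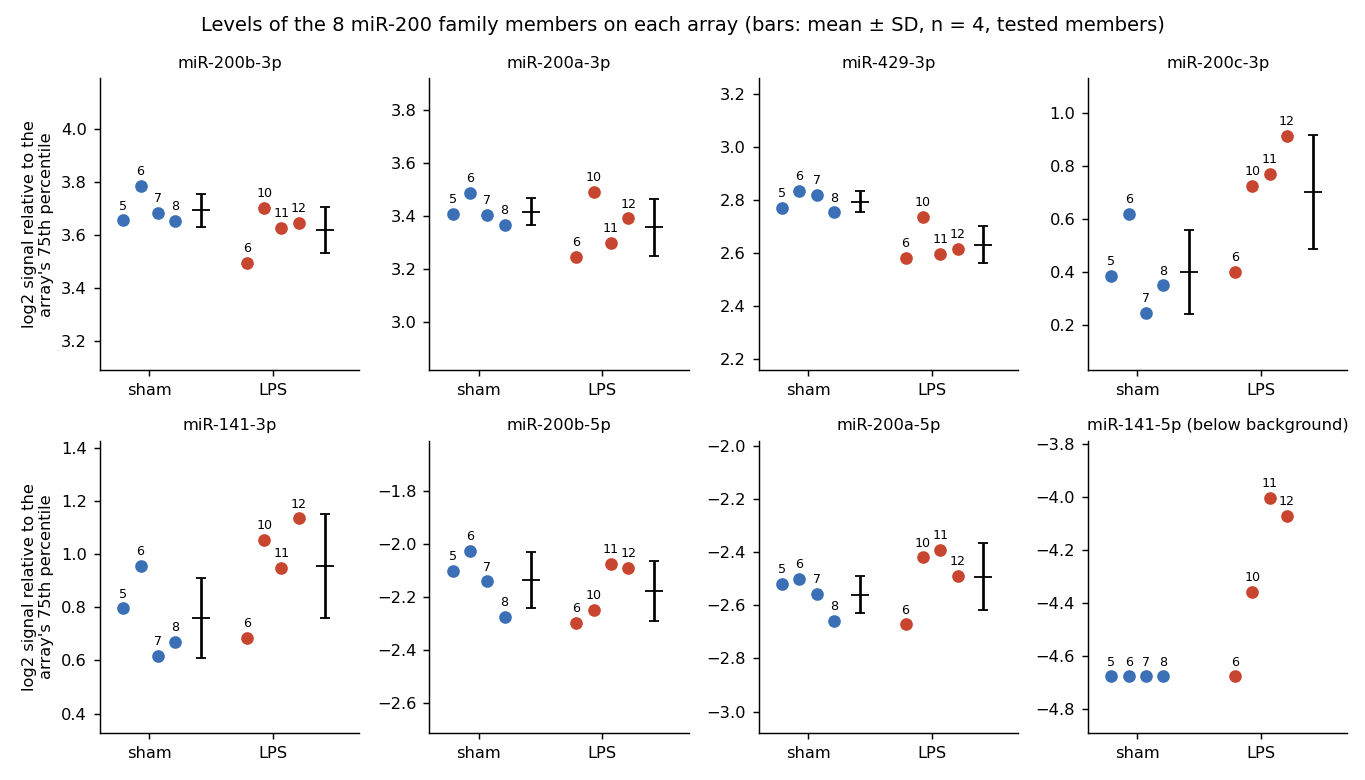
Log2 signal relative to the array's 75th percentile for the 8 members in sham (blue) and LPS (red) kidneys, 1 point per array with its replicate number and a bar for mean ± SD of tested members (n = 4). Every panel spans the same range of log2 units. The groups separate for miR-429-3p, LPS 10, 11 and 12 lie above all sham arrays for miR-200c-3p, and miR-141-5p is at the floor of -4.68 on all sham arrays and on LPS 6.

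In the chromosome 6 cluster, miR-200c-3p, which carries the same seed as miR-200b-3p, was at 0.38, 0.62, 0.25 and 0.35 on sham 5, 6, 7 and 8. On LPS 6, 10, 11 and 12 it was at 0.40, 0.72, 0.77 and 0.91. LPS 10, 11 and 12 were above every sham array, and LPS 6 fell inside the sham range. The means were 0.40 ± 0.16 and 0.70 ± 0.22 (SD, n = 4 each), a difference of 0.30 ± 0.12, or 1.23-fold, which did not pass the test (SE, limma adjusted p = 0.0802, 95% interval 0.02 to 0.58). Without LPS 6 the difference was 0.42 (limma adjusted p = 0.0159) and the groups no longer overlapped. Leaving out any other single array gave no call, with differences down to 0.22 (limma adjusted p up to 0.219). MiR-200c-3p also passed without scaling between arrays (0.38, adjusted p = 0.0299) and with cyclic loess (0.35, adjusted p = 0.0391). It passed under 3 of 27 alternatives in all, and the adjusted p reached 0.375.

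MiR-141-3p, the guide strand of the neighbouring hairpin, was at 0.80, 0.96, 0.62 and 0.67 on the sham arrays and at 0.69, 1.05, 0.95 and 1.14 on the LPS arrays. LPS 10 and 12 were above every sham array, LPS 11 lay just under sham 6, and LPS 6 was again among the sham values. The means of 0.76 ± 0.15 and 0.96 ± 0.20 (SD, n = 4 each) differed by 0.20 ± 0.11, or 1.14-fold (SE, limma adjusted p = 0.199, 95% interval -0.06 to 0.45). Without LPS 6 the difference was 0.30 (limma adjusted p = 0.0455) and the groups did not overlap. That was the only call for miR-141-3p under the 27 alternatives. Leaving out single arrays gave 0.12 to 0.30 (limma adjusted p up to 0.468).

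LPS 6 carried the general response to LPS although it did not carry the higher miR-200c-3p and miR-141-3p levels. Within slide columns 1 to 4, miR-200c-3p differed by 0.015, 0.11, 0.52 and 0.56 and miR-141-3p by -0.11, 0.095, 0.33 and 0.47. LPS 10, in column 2, was therefore also little above the sham array of its column, sham 6. The miR-21a-5p level of LPS 6, 6.63, lay beside 6.70 to 6.88 on the other LPS arrays. Over the 114 called, non-overlapping miRNAs outside the family, the median position of LPS 6 was 0.898 of the way from the sham mean to the LPS mean, against 0.993 to 1.01 for the other LPS arrays, a description since these arrays chose those miRNAs. LPS 6 also had the highest summed level of red cell miRNAs, 3.78 against 1.01 to 3.26 on the other LPS arrays and -0.97 to 1.64 on sham arrays. Its summed level of kidney tubule miRNAs was the lowest of all 8 arrays, at 6.05. The other LPS arrays were at 6.09 to 6.24 and the sham arrays at 6.19 to 6.30. MiR-9-5p, the 1 tested miRNA of 2 neuronal markers, was at -2.96 on LPS 6, -2.38 to -2.23 on the other LPS arrays and -3.04 to -2.48 on sham arrays, with miR-124-3p not detected. MiR-9-5p was also the miRNA most like the chromosome 6 guides (r = 0.956), so its low LPS 6 value is not a separate observation. Its other arm, miR-9-3p, passed as higher by 0.47 (limma adjusted p = 0.0465), with overlapping groups. The part of red cell, tubule or nerve content in these levels was not tested.

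The gap between the clusters was narrower in LPS than in sham kidneys on every array. The mean of miR-200b-3p, miR-200a-3p and miR-429-3p was 3.28, 3.37, 3.30 and 3.26 on sham 5, 6, 7 and 8 and 3.11, 3.31, 3.17 and 3.22 on LPS 6, 10, 11 and 12. The mean of miR-200c-3p and miR-141-3p was 0.59, 0.79, 0.43 and 0.51 on the same sham arrays and 0.54, 0.89, 0.86 and 1.02 on the LPS arrays. Each cluster's own values overlapped between the groups. Their difference, in which any scaling common to an array cancels, was 2.69, 2.58, 2.87 and 2.75 on the sham arrays and 2.56, 2.42, 2.32 and 2.19 on the LPS arrays. All LPS values were below all sham values, with sham 6 and LPS 6 the nearest to each other.

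In group means, the gap went from 2.72 ± 0.12 to 2.37 ± 0.16 (SD, n = 4 each), a difference of -0.35, which is a ratio of the clusters of 0.786 times its sham value. The mean of the first cluster differed by -0.10 and that of the second by 0.25. No p is given for a measure over chosen members, and the height of the gap itself has no meaning across probes. Within slide columns 1 to 4 the difference was -0.12, -0.16, -0.55 and -0.56, so it was several times larger in columns 3 and 4 than in columns 1 and 2. Leaving out single arrays gave -0.41 (without LPS 6) to -0.29 (without LPS 12). Groups overlapped under 2 alternatives, cyclic loess (-0.35) and quantile normalization (-0.29).

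**Figure D2:**
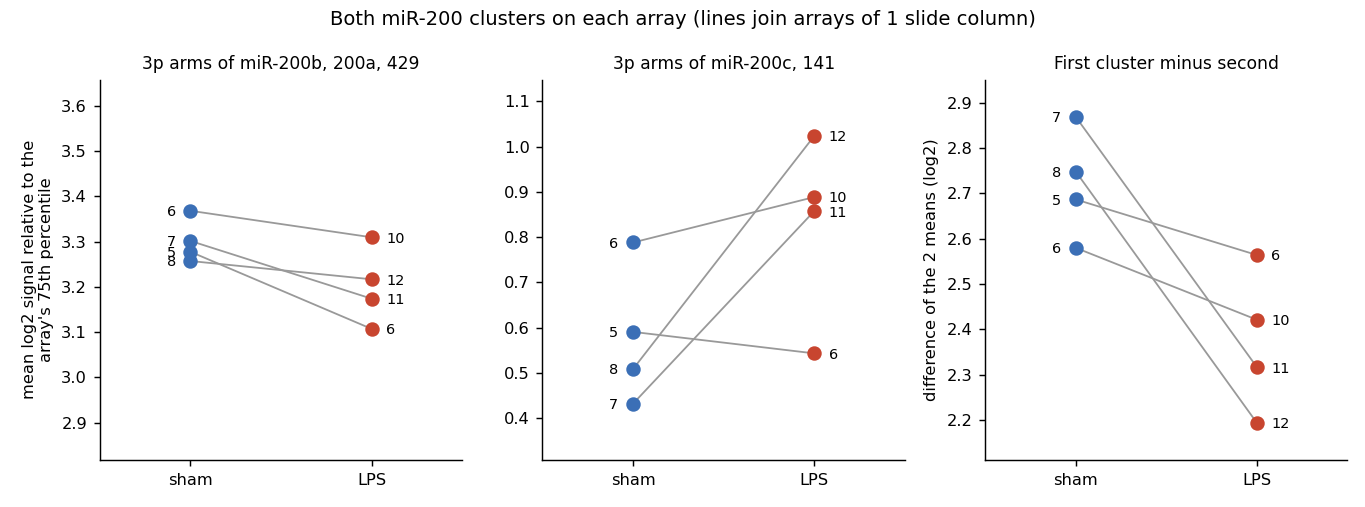
Mean log2 signal of the guide strands of each cluster, and the first mean minus the second, on sham (blue) and LPS (red) arrays, 1 point per array with its replicate number. Lines join the arrays of 1 slide column. The cluster means overlap between groups, while the difference is 2.58 to 2.87 on sham and 2.19 to 2.56 on LPS arrays, and every line falls.

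Grouped by seed in place of cluster, the values overlapped between the groups. The mean of the AAUACUG guides (miR-200b-3p, miR-200c-3p and miR-429-3p) differed by 0.02 between LPS and sham kidneys and that of the AACACUG guides (miR-200a-3p and miR-141-3p) by 0.07. Their difference was 0.21 ± 0.03 in sham and 0.16 ± 0.05 in LPS kidneys (SD, n = 4 each). Within a seed, the members of the clusters differed. MiR-200c-3p minus miR-200b-3p moved from -3.29 ± 0.11 to -2.92 ± 0.16 (SD, n = 4 each), a change of 0.38 with groups that did not overlap. MiR-141-3p minus miR-200a-3p changed by 0.25, with LPS 6 at -2.56 just under sham 6 at -2.53. Both pairs were higher in the LPS array of all 4 slide columns.

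Within a cluster the pairs changed less. MiR-200a-3p minus miR-200b-3p changed by 0.02, miR-429-3p minus miR-200b-3p by -0.09 and miR-200c-3p minus miR-141-3p by 0.11. The last 2 also kept their sign in all 4 slide columns.

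Probes of the same member gave like differences. Both probes of miR-200c-3p were higher, by 0.34 and 0.28, and 3 of 4 LPS arrays were above all sham arrays on each. The miR-141-3p probes gave 0.15 and 0.21. In the chromosome 4 cluster the miR-200b-3p probes gave -0.12 and -0.05 and both miR-200a-3p probes -0.06. Each member had 30 spots per array, and the spots of a guide-strand probe varied by 1.38% to 6.74% (coefficient of variation), with none saturated.

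**Figure D3:**
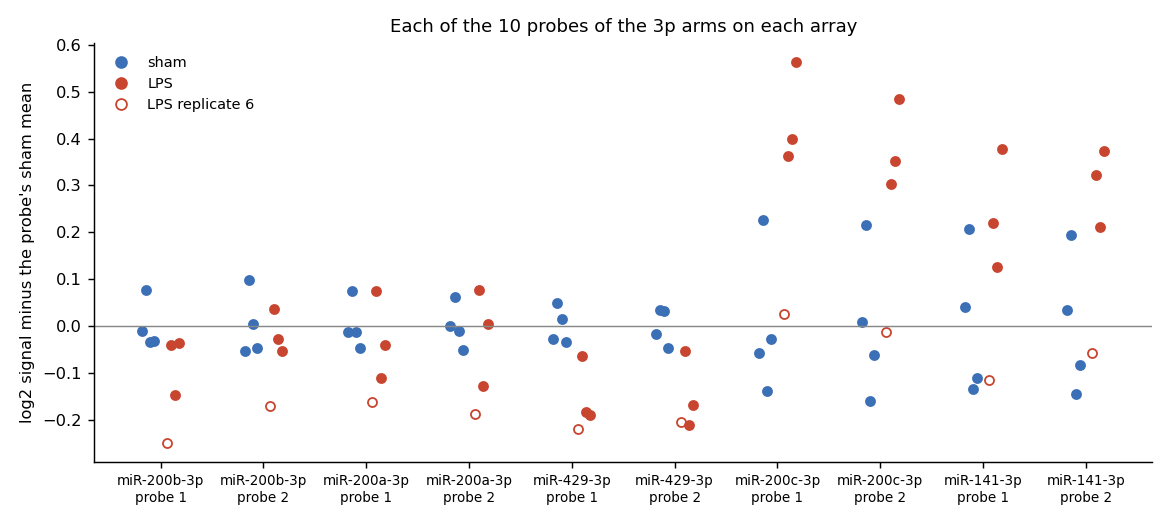
Log2 signal of each of the 10 probes of the guide strands minus that probe's sham mean, for sham (blue) and LPS (red) arrays, with LPS replicate 6 as an open circle. Both probes of miR-200c-3p and miR-141-3p show LPS 10, 11 and 12 above the sham mean and LPS 6 among the sham arrays, and both probes of miR-429-3p show all LPS arrays below the sham arrays.

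The passenger strands were dim and did not pass the test. MiR-200b-5p was at -2.10, -2.03, -2.14 and -2.28 on the sham arrays and at -2.30, -2.25, -2.07 and -2.09 on the LPS arrays. The groups overlapped fully, with a difference of -0.04 ± 0.08 (SE, n = 4 each, limma adjusted p = 0.694, 95% interval -0.22 to 0.14). MiR-200a-5p was at -2.52, -2.50, -2.56 and -2.66 on the sham arrays and at -2.67, -2.42, -2.39 and -2.49 on the LPS arrays. Here LPS 10, 11 and 12 were above all sham arrays and LPS 6 just below them. The difference was 0.07 ± 0.07 (SE, n = 4 each, limma adjusted p = 0.503, 95% interval -0.10 to 0.24).

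MiR-141-5p was not well above background on any array, and its differences have no fold. Its summed signal was at the floor of -4.68 on all sham arrays and LPS 6, and at -4.36, -4.00 and -4.07 on LPS 10, 11 and 12. The manufacturer's total signal for it was 0.1, the lowest value the software gives, on the first 5 of these and 1.87, 3.69 and 3.38 on LPS 10, 11 and 12. Values below background have no order.

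For the hairpins with both arms measured, the balance of the arms showed no called change. The miR-200a guide minus passenger difference was 5.93, 5.99, 5.96 and 6.02 on the sham arrays and 5.92, 5.91, 5.69 and 5.88 on the LPS arrays. The LPS arrays were all just below the sham arrays, LPS 11 farthest. The change was -0.13 ± 0.06 (SE, n = 4 each, limma adjusted p = 0.118, 95% interval -0.26 to 0.01).

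The same measure for miR-200b was 5.76, 5.81, 5.83 and 5.93 on the sham arrays and 5.79, 5.95, 5.70 and 5.74 on the LPS arrays. Its groups overlapped, with a change of -0.03 ± 0.06 (SE, n = 4 each, limma adjusted p = 0.705, 95% interval -0.18 to 0.11). Neither of these 2 hairpins passed the limma test, also at an unadjusted p of 0.05, while 12 of all 35 hairpins with both arms tested did after adjustment (34.3%). That total was 6 without sham 5. MiR-141 could not be tested for lack of a detected 5p arm.

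Which members passed depended on the scaling. With scaling to the labelling spike-ins the median of all tested miRNAs was -0.23 in place of -0.08, and miR-200b-3p (-0.22), miR-200a-3p (-0.20) and miR-429-3p (-0.30) passed as lower, while miR-200c-3p was at 0.16 and miR-141-3p at 0.052. Without scaling the median was -0.01, and miR-200c-3p was the 1 member that passed. Quantile normalization shifted members unequally, miR-200b-3p from -0.08 to 0.054 and miR-141-3p from 0.20 to 0.15. MiR-429-3p kept its negative sign, and miR-200c-3p and miR-141-3p their positive sign, under all 27 alternatives, whereas miR-200b-3p, miR-200a-3p and both 5p arms changed sign under some. The filters by number of arrays, the floors, the variance models and the slide column block could not change these differences, only their p-values.

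**Figure D4:**
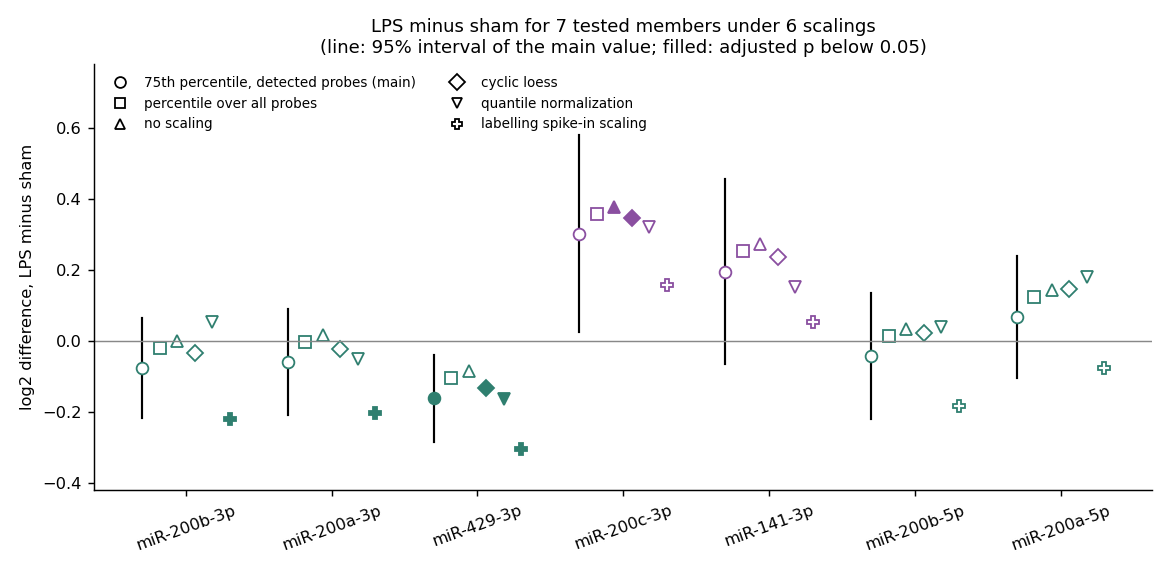
LPS minus sham on the log2 scale for the 7 tested members under 6 scalings, with the 95% interval of the value used in the text as a line and filled symbols where the adjusted p was below 0.05. Green marks the chromosome 4 cluster and purple the chromosome 6 cluster. MiR-429-3p lies below 0 and miR-200c-3p and miR-141-3p above 0 under each of the 6, and the other members lie on either side.

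Over the 8 arrays, correlations between the guide strands were higher within than across clusters, which did not hold for every pair on deviations from group means. For instance, miR-200c-3p and miR-141-3p correlated at r = 0.959, and at 0.958 on deviations from group means. MiR-200b-3p correlated at 0.908 with miR-200a-3p and at 0.784 with miR-429-3p. Across the clusters the values were lower: 0.170 for the same-seed pair miR-200b-3p and miR-200c-3p, 0.407 for miR-200a-3p and miR-141-3p, and -0.464 for miR-429-3p and miR-200c-3p. On deviations from group means these 3 were 0.801, 0.787 and 0.307. On the same scale miR-200b-3p was at 0.850 with miR-141-3p of the other cluster and at 0.794 with its neighbour miR-429-3p. These coefficients describe 8 arrays that share a slide, and each array's values share its scaling.

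The miRNAs most like the mean profile of the 5 guide strands, of 299 others detected on all arrays, were miR-30b-5p (r = 0.962), miR-10a-5p (0.947), miR-210-3p (0.930), miR-23a-3p (0.919) and miR-148a-3p (0.907) over the 8 arrays. None of these 5 passed the test for LPS against sham. Of these, miR-30b-5p belongs to a family abundant in kidney epithelium and miR-210-3p is induced by hypoxia. Only 3 of the 5 stayed among the first 5 on deviations from group means, and 3 with cyclic loess.

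Taken by cluster, a comparison made after the values were seen, the most similar miRNA was miR-30a-5p for the chromosome 4 guides (r = 0.987) and miR-9-5p for the chromosome 6 guides (r = 0.956). With cyclic loess the 5 most like the chromosome 4 guides ranked no higher than 15 of 299.

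Of 27 other miRNAs tied to epithelial-mesenchymal transition and TGF-β signalling, 26 were tested, 4 rose and 6 fell. These counts are near the shares of 14.8% and 25.4% over all tested miRNAs, and the median difference was -0.02, beside -0.08. MiR-21a-5p, raised in fibrosis, was higher by 2.22 ± 0.08 (SE, limma adjusted p = 1.95e-07) and miR-155-5p, induced in activated leukocytes, by 1.68 ± 0.08 (limma adjusted p = 2.25e-06), or 0.99 with normexp background correction. MiR-29a-3p and miR-29b-3p, which repress collagen mRNAs, rose by 0.25 ± 0.07 and 0.23 ± 0.07 (limma adjusted p = 0.0308 and 0.0344).

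Lower were miR-145a-5p of smooth muscle (-0.44 ± 0.08, SE, limma adjusted p = 0.00278), miR-221-3p (-0.32 ± 0.06, 0.00278), and the tubule miRNAs miR-30e-5p (-0.29 ± 0.07, 0.0124) and miR-30c-5p (-0.26 ± 0.06, 0.0134). MiR-192-5p and miR-199a-5p also passed as lower, with overlapping groups. The list's count of higher members was 2 without sham 7, without sham 8, without LPS 12 and with slide column as a block. The miR-29a-3p call was lost without sham 7, sham 8 or LPS 12 (adjusted p = 0.0516, 0.0804 and 0.107) and that of miR-29b-3p without sham 6, sham 7, sham 8 or LPS 12 (0.0548, 0.0607, 0.0942 and 0.104). With spike-in scaling they were at 0.11 and 0.085 (0.253 and 0.377). The count of lower members was 2 on unscaled values and with no detection filter. It was 3 with the percentile over all probes and with the deposited ratio table, and 10 with spike-in scaling.

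Of 11 other epithelial miRNAs, 8 were tested, 3 rose and 3 fell, beside 14.8% and 25.4% over all tested miRNAs. The median difference was -0.04, beside -0.08. MiR-7a-5p rose by 1.02 ± 0.08 (SE, limma adjusted p = 6.11e-05), and by 0.36 with normexp. MiR-182-5p, of the cluster it shares with miR-183 and miR-96, had no sham array well above background. In LPS kidneys its brightest probe read at least 1.2-fold higher, a bound without a test of its own. MiR-182-5p entered the test only through its detection on the LPS arrays. Its summed level passed as higher (limma adjusted p = 0.0205, 0.0565 without sham 8 and 0.354 with normexp background correction). That level was called under 19 of 26 alternatives, with differences down to 0. MiR-96-5p also passed as higher, with overlapping groups.

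The tubule miRNAs miR-194-5p (-0.33 ± 0.07, SE, limma adjusted p = 0.0107) and miR-204-5p (-0.19 ± 0.06, 0.0378) fell, as did miR-192-5p with overlapping groups. The miR-204-5p call was lost without any array other than LPS 10 (adjusted p from 0.0562 to 0.106), under a block for slide column (0.0532) and on unscaled values, at -0.12 (0.255). The list's higher count was 1 without sham 8, and its lower count 1 without sham 7, sham 8, LPS 11 or LPS 12. The higher count was 1 with normexp and with the floor 1 log2 unit higher, and each count was 1 under a block for slide column. The lower count was 1 with the percentile over all probes and 0 on unscaled values.

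Marker miRNAs of the cell types in a kidney sample give the setting of these levels. Of 9 tested kidney tubule miRNAs, 6 fell and 0 rose by the limma test (25.4% and 14.8% over all), and their summed level was 6.19 to 6.30 on sham and 6.05 to 6.24 on LPS arrays. The lower count was 3 without sham 6 or LPS 6, and 2 without sham 7, sham 8, LPS 11 or LPS 12 and with slide column as a block. It was 2 with the percentile over all probes and 1 on unscaled values. The lists share members, so their counts are not separate. MiR-192-5p, miR-194-5p and miR-204-5p were also the lower ones among the other epithelial miRNAs. MiR-192-5p is in the epithelial-mesenchymal transition list too, and the lower tubule miRNAs include both arms of miR-192. They also include the paralogs miR-196a-5p (-0.13) and miR-196b-5p (-0.17), so the 6 are not 6 separate markers. MiR-10a-5p, miR-10b-5p and miR-30a-5p of the tubule list did not pass. Of 6 leukocyte miRNAs 2 rose (4 without sham 5), with sums of 1.18 to 1.64 and 1.79 to 1.89. Both tested red cell miRNAs rose, with overlapping groups, and miR-144-3p was detected on only 2 sham arrays. The red cell count was not followed under the alternatives. Of 6 smooth muscle and stromal miRNAs 3 fell (1 without sham 5, sham 6, LPS 6 or LPS 11), with sums of 2.95 to 3.13 and 2.97 to 3.16.

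Neither endothelial miRNA passed (limma, sums 4.13 to 4.23 and 4.10 to 4.27), nor did the 2 tested of 4 striated muscle miRNAs, and the liver marker miR-122-5p was not detected. The median difference was -0.06 in the chromosome 4 cluster and -0.17 in the tubule list, beside -0.08 over all tested miRNAs. The part of tubule, leukocyte or red cell content in the family's levels was not tested.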

How the data were processed

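MiRNAs were measured in 4 sham and 4 LPS mouse kidney samples on 1-colour Agilent miRNA arrays. The authors deposited intensities per spot as Agilent Feature Extraction 12.0.3.1 output (per the submitters' processing notes), background-subtracted and not scaled between arrays per the file headers. A table of 1 linear ratio per miRNA and array, also deposited by the authors, has its array factors not given in the sources used here and served only as an alternative.

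Outlier spots were dropped, spots averaged per probe, each array divided by its 75th percentile over 551 probes detected on all arrays, probes summed per miRNA, floored at -4.68 and log2-transformed. A miRNA was detected where more than 50% of the spots of any probe were well above background. The 338 miRNAs detected on every array of a group entered a limma fit (version 3.58.1, R 4.3.3, 2-sided, Benjamini-Hochberg over all 338, threshold 0.05). Guide minus passenger values were fitted over 35 hairpins. The fits were tested on simulated data with planted 2-fold changes. Recovery of changes as small as those of the members was not tested.

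Named miRNAs were the 8 members, the 5 most correlated with the mean of the guides, and called, non-overlapping members of 2 lists, at most 5 per direction. Others are named where a count is broken down or were chosen after their values were seen. Members and lists were chosen with earlier results of these data known. Alternatives covered scaling, background, probe summary, filter, floor, variance model, slide column, the ratio table and leaving out each array. The number of arrays limits the precision.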

Additional observations from a re-analysis of the deposited data

Results flagged for a closer look

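In all, 3 values stood apart within a group of 4 arrays by the gap to the nearest array over the group's range (Dixon's 95% limit), of 60 such groups examined, where chance gives about 3. The mean of the AAUACUG guides was 2.41 on sham 6 and 2.25 to 2.27 on the other sham arrays. The miR-200a guide minus passenger difference was 5.69 on LPS 11 and 5.88 to 5.92 on the other LPS arrays. The summed smooth muscle and stromal miRNAs were at 3.16 on LPS 10 and 2.97 to 2.99 on the other LPS arrays.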

How the results depend on the processing

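The groups share only 1 replicate number, so numbers could not serve as a block, and slide column was used. Of 27 alternatives, the count of 136 called miRNAs became 60 with no detection filter and 80 with slide column as a block, and 94 to 148 on leaving out single arrays. Higher and lower calls were 50 and 86, 55 and 53 with the percentile over all probes, 57 and 49 without scaling, 65 and 66 with cyclic loess and 34 and 150 with spike-in scaling. The count of called members, 1, became 0 with the percentile over all probes, no detection filter, any spot above background, slide column as a block and the deposited ratio table, 2 with cyclic loess and 3 with spike-in scaling, and ranged from 0 to 2 on leaving out single arrays. Without scaling it stayed at 1, with another member called. The narrower gap between clusters kept its sign under all 27, from -0.41 to -0.29. Scalings common to an array, detection filters, floors, variance models and the slide column block could not change the gap by construction. Those alternatives therefore say nothing about its stability. Of the 5 most similar miRNAs, 3 stayed on deviations from group means and 3 with cyclic loess. Signs reversed for miR-200a-3p without scaling (0.017), miR-200a-5p with spike-in scaling (-0.076) and normexp (-0.013), and miR-200b-3p without scaling (0.00022) and with quantile normalization (0.054). They reversed for miR-200b-5p with the percentile over all probes (0.015), no scaling (0.035), cyclic loess (0.023) and quantile normalization (0.039), and its range on leaving out arrays was -0.088 to 0.014. The miR-200b arm difference was 0.015 with quantile normalization. With no detection filter 48 hairpins were called. The cause of these changes was not tested.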

Other observations

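The passenger strands of miR-200c and miR-429, which the array also carries, were not detected on any array. The manufacturer's total signal of miR-200c-5p and of miR-429-5p was 0.1, the lowest the software gives, on all 8 arrays.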
